A study of Mus musculus with 4 samples.

Results

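The genes described here drive the mechanical part of cell division in mouse bone marrow stem and progenitor cells with and without Hdac3. They are 37 named genes for M-phase kinases and cyclins, the spindle checkpoint, the kinetochore, spindle motors and cytokinesis. Of these, 36 were measured among 19938 genes on Affymetrix arrays, and the remaining one, the cyclin gene Ccnb1, is not named by the array annotation and was not analysed here. The members were chosen by name and function. Where a gene had more than 1 probe set, the one brightest on average was taken.

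LSK cells are marrow cells that lack lineage markers and carry Sca-1 and Kit, and they hold the blood stem cells. Flt3, a cytokine receptor, separates the more primitive LSK/Flt3- cells from LSK/Flt3+ progenitors with lymphoid potential. The null group (genotype Vav-Cre/Hdac3Flox/-, 2 arrays of LSK/Flt3- cells) carries 1 floxed and 1 null allele of Hdac3, a histone deacetylase, and expresses Cre from the Vav promoter, which is active across blood cells. The other groups were wild-type cells, with 1 array of LSK/Flt3- and 1 of LSK/Flt3+ cells, called the Flt3- wild type and the Flt3+ wild type. The sources used here do not say whether they carried Cre. All mice had the C57BL/6 background, and the sources used here give no age. For each array, cells of 5 to 30 mice were pooled and sorted, and the series' title names DNA replication and differentiation as its subject.

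All values are log2 expression levels per probe set as deposited, so a difference of 1 is a 2-fold change. Levels of different genes come from different probes and are not compared with each other. The median level over genes was 5.70 on null replicate 1, against 5.50 to 5.58 on the other arrays. Null replicate 1 also had the narrowest spread over genes, with an SD of 1.8 against 1.87 to 1.92. Over all genes its median difference was 0.14 from null replicate 2 and 0.15 from the Flt3- wild type. Over genes with a mean level of at least 6, which every member has, these medians were -0.04 and -0.02. Member differences are read against both kinds of shift. Hdac3 itself had levels of 5.71 and 5.04 on null replicates 1 and 2 and 6.18 and 6.33 in the Flt3- and Flt3+ wild types. It was lower on both null arrays, although neither difference passed (limma, adjusted p = 1 for each). The sources used here do not say whether its probes lie in the deleted part, so these levels do not check the labels. Of the sort markers, Kit had levels of 10.11 to 10.77 over the 4 arrays, and Ly6a, which encodes Sca-1, is not named by the annotation. Flt3 was at 7.84 and 7.02 on null replicates 1 and 2 and at 9.18 and 10.07 in the Flt3- and Flt3+ wild types, so the wild types differed by less than either did from the null arrays. Its difference of -2.64 from the Flt3+ wild type passed (adjusted p = 0.0317, limma), and that of -1.75 from the Flt3- wild type did not (adjusted p = 0.692). Among B-lineage genes, levels ran from 3.21 to 3.71 for Cd79a up to 6.59 to 8.15 for Vpreb1, and T cell genes included Cd3g at 3.32 to 3.80 and Cd3e at 5.09 to 5.23.

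Entry into mitosis is driven by CDK1 bound to cyclins, which is switched on by CDC25 phosphatases and strengthened by the Aurora and Polo kinases. Kinetochores then attach chromosomes to spindle microtubules, and the spindle checkpoint restrains CDC20, the activator of the anaphase-promoting complex (APC/C), until attachment is complete. Most of these genes are transcribed late in the cell cycle, so their RNA level in a cell population follows how many cells are in G2 and M phase. In bulk samples, fewer dividing cells and less RNA per dividing cell cannot be told apart.

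Many promoters of such genes share a pair of short elements. The cell cycle genes homology region (CHR, searched as TTTGAA) is bound by the MuvB core, which sits in the repressive DREAM complex in resting cells and in the activating complexes with B-MYB and FOXM1 in dividing cells. The CCAAT box (searched as CCAAT) is bound by NF-Y. Both were searched on both strands in windows from 250 bases before to 50 bases after the gene start (RefSeq, GRCm38.p6), with the start base as position 0. Windows were found for 29 of the 36 measured members, and Ccna2, Cdc25c, Aurkb, Incenp, Spc24, Tpx2 and Kif20a were not matched. The following 8 stretches are shown because they carry the CHR letters close to CCAAT letters and belong to members from different steps of mitosis. Capitals mark the letters found, which read TTCAAA or ATTGG where the match is on the other strand, and each stretch runs 5′ to 3′ along the gene.
Ccnb2, chr9:70421535-70421654, minus strand: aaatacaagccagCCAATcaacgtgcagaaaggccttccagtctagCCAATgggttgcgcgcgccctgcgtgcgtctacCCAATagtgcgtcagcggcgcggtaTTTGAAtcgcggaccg
Cdk1, chr10:69352903-69353012, minus strand: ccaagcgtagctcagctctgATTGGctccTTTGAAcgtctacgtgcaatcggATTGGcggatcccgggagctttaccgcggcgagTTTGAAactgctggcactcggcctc
Cdc20, chr4:118437334-118437443, minus strand: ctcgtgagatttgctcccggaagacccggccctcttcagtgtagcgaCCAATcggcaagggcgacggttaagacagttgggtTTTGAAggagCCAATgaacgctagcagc
Cdca8, chr4:124936888-124937017, minus strand: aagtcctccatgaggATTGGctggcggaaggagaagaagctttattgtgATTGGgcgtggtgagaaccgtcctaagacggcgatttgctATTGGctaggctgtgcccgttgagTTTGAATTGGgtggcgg
Ttk, chr9:83834589-83834708, plus strand: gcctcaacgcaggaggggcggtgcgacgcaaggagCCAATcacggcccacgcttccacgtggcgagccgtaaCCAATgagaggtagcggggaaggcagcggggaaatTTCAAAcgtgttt
Kif11, chr19:37376282-37376391, plus strand: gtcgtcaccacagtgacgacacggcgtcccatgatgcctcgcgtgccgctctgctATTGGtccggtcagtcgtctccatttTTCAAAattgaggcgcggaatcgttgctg
Top2a, chr11:99024180-99024299, minus strand: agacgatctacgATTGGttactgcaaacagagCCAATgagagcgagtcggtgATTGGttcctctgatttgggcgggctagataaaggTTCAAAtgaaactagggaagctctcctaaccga
Mki67, chr7:135716460-135716579, minus strand: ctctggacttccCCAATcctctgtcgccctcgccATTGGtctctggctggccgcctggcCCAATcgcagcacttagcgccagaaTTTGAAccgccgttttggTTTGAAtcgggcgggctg

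The CHR letters were present in 22 of the 29 member windows (75.9%), against 15.2% of the windows of 15614 measured genes. CCAAT letters were present in 22 of 29 (75.9%) against 38.2%, and both together in 19 of 29 (65.5%) against 6.12%. A CHR match whose first base lay within 50 bases of the gene start was found in 20 of 29 windows, against 3.82% of all measured genes. In Ccnb2 the CCAAT letters began at positions -87, -54 and -21 and the CHR letters near the start at position 4. In Ttk they began at -65 and -28, with the CHR letters at 7. Of 84 windows of other mitosis genes, 34 (40.5%) held the CHR letters, as did 3 of 15 windows of replication genes (20%). The 2 kinds of letters overlapped at 1 place in the member windows, in Cdca8. Members with the CHR letters had a median log2 difference of -0.15 between null cells and the Flt3- wild type, and the 7 without them had -0.18. Against the Flt3+ wild type the order was the other way, with -0.21 and -0.18. These matches are letters in a window and were not tested as binding sites.

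**Figure D1:**
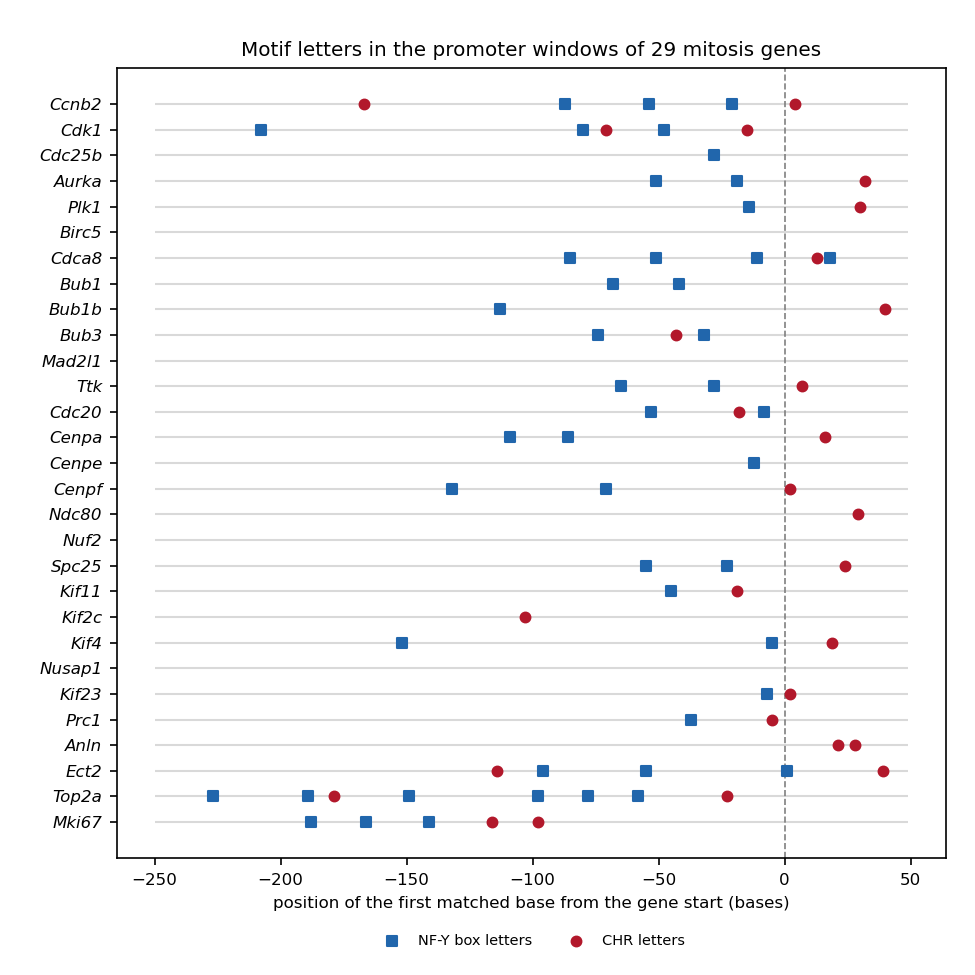
Positions of CHR letters (red circles) and NF-Y box letters (blue squares) along the promoter windows of 29 mitosis genes; the x axis is the distance in bases from the gene start (dashed line at 0), and each grey line is 1 window. CHR letters lie within 50 bases of the start in 20 of the 29 windows, mostly to the right of the NF-Y box letters.

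The 36 members spanned ranges over the 4 arrays close to those of other genes. The distance between a member's lowest and highest log2 level had a median of 0.44 and was under 0.5 for 21 members. The median was 0.46 over all genes and 0.50 over those with a mean of at least 6. It was smallest for Mki67 (0.10) and largest for Cdc20 (1.30), the one member that spanned 1 or more. The lowest of the 4 levels lay on null replicate 1 for 22 members and on null replicate 2 for 9. It lay in the Flt3- wild type for 3 members and in the Flt3+ wild type for 2. The highest lay in the Flt3+ wild type for 13 members and in the Flt3- wild type for 11. The shares of other genes in these counts were not counted.

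**Figure D2:**
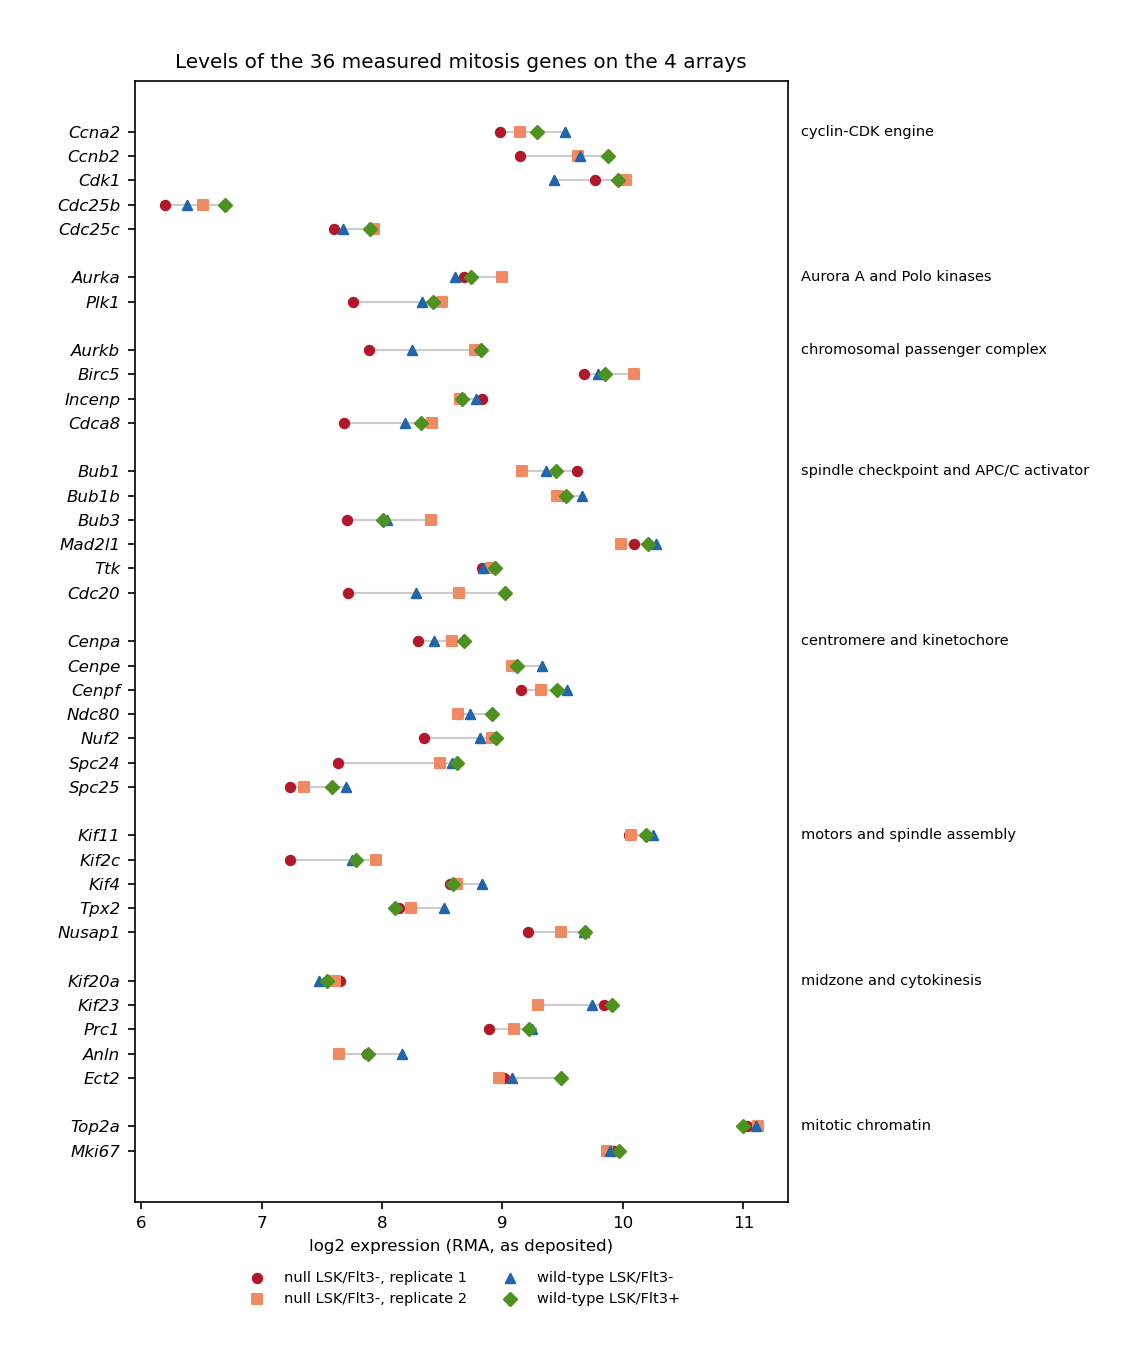
Log2 expression (x axis) of the 36 measured mitosis genes (rows, grouped by function) on each of the 4 arrays: null LSK/Flt3- replicate 1 (dark red circles), null replicate 2 (orange squares), wild-type LSK/Flt3- (blue triangles) and wild-type LSK/Flt3+ (green diamonds), with a grey line from the lowest to the highest. Mki67 and the brighter probe set of Top2a sit within 0.12 over all arrays. For Cdc20, Aurkb and Spc24 null replicate 1 is the lowest array, and for Spc24 it lies apart to the left.

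The first question was whether mitosis genes differ without Hdac3 within the Flt3- fraction. In a limma fit over all genes, 0 of the 36 members passed at an adjusted p of 0.05 (adjusted p = 1 for each), and 0 had an unadjusted p under 0.05. Over all genes 0.0201% passed as higher and 0% as lower, and 2.40% had an unadjusted p under 0.05. No member differed by 2-fold or more on each of the null arrays, against 0.632% of all genes. The smallest unadjusted p among the members was 0.198, for Cdk1. The 95% interval of the difference lay within 2-fold either way for 17 members and reached 2-fold or more for 19. It lay within 2-fold for 12222 of all 19938 genes and 4089 of the 8418 with a mean of at least 6. Differences smaller than these intervals were not detectable with 4 arrays. The intervals are not adjusted for the number of genes, and larger differences could also fail the adjusted threshold. The p-values rest only on the spread between the 2 null arrays, drawn mostly from all genes together (9.01 prior degrees of freedom beside 1 residual). No label says that the null replicates are from different mice, so this spread may be technical.

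The direction of the small differences was mostly down. The median log2 difference of the members was -0.15, with 25 lower and 11 higher, against a median of 0.09 over all genes and of 0.00 over the 8418 genes with a mean level of at least 6, which every member has. After centring each array on its median, which lowers all genes of the null arrays alike against this wild type, 33 members were lower and 3 (Cdk1, Aurka and Kif20a) higher. The share of other genes lower after this centring was not counted. Measured from the all-gene median difference, 91.7% of the members and 67.7% of the genes with a mean of at least 6 were lower on null replicate 1. On null replicate 2 these shares were 58.3% and 51.3%. Both null arrays lay below the Flt3- wild-type array for 16 members, or 44.4%, against 19.9% of all genes and 29.3% of the genes with a mean of at least 6. Both lay above it for 3 members, Cdk1, Aurka and Kif20a, against 41.3% of all genes and 29.1% of those with a mean of at least 6. The null arrays lay on either side of it for 17. On null replicate 1 alone the members' median was -0.22, and on null replicate 2 alone -0.06.

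Set against the Flt3+ wild type, which is another sorted fraction, the null arrays again gave 0 of 36 members past the adjusted threshold (adjusted p = 1 for each) and 0 at an unadjusted p under 0.05. Over all genes 0.0351% passed as higher, 0.281% as lower, and 3.44% had an unadjusted p under 0.05. The members' median log2 difference was -0.19, with 28 lower and 8 higher, against 0.05 over all genes and 0.01 over those with a mean of at least 6. The members' median was -0.29 on null replicate 1 and -0.09 on null replicate 2. Both null arrays lay below the Flt3+ wild-type array for 22 members, against 25.1% of all genes and 28.0% of those with a mean of at least 6. No member differed by 2-fold or more on each of the null arrays, against 1.34% of all genes. The 2 comparisons share the null arrays and are not independent of each other. Both null arrays lay below both wild-type arrays for 14 members, against 11.7% of all genes and 16.9% of those with a mean of at least 6. They lay above both for 1, Kif20a, against 23.0% of all genes and 1553 of the 8418 with a mean of at least 6.

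**Figure D3:**
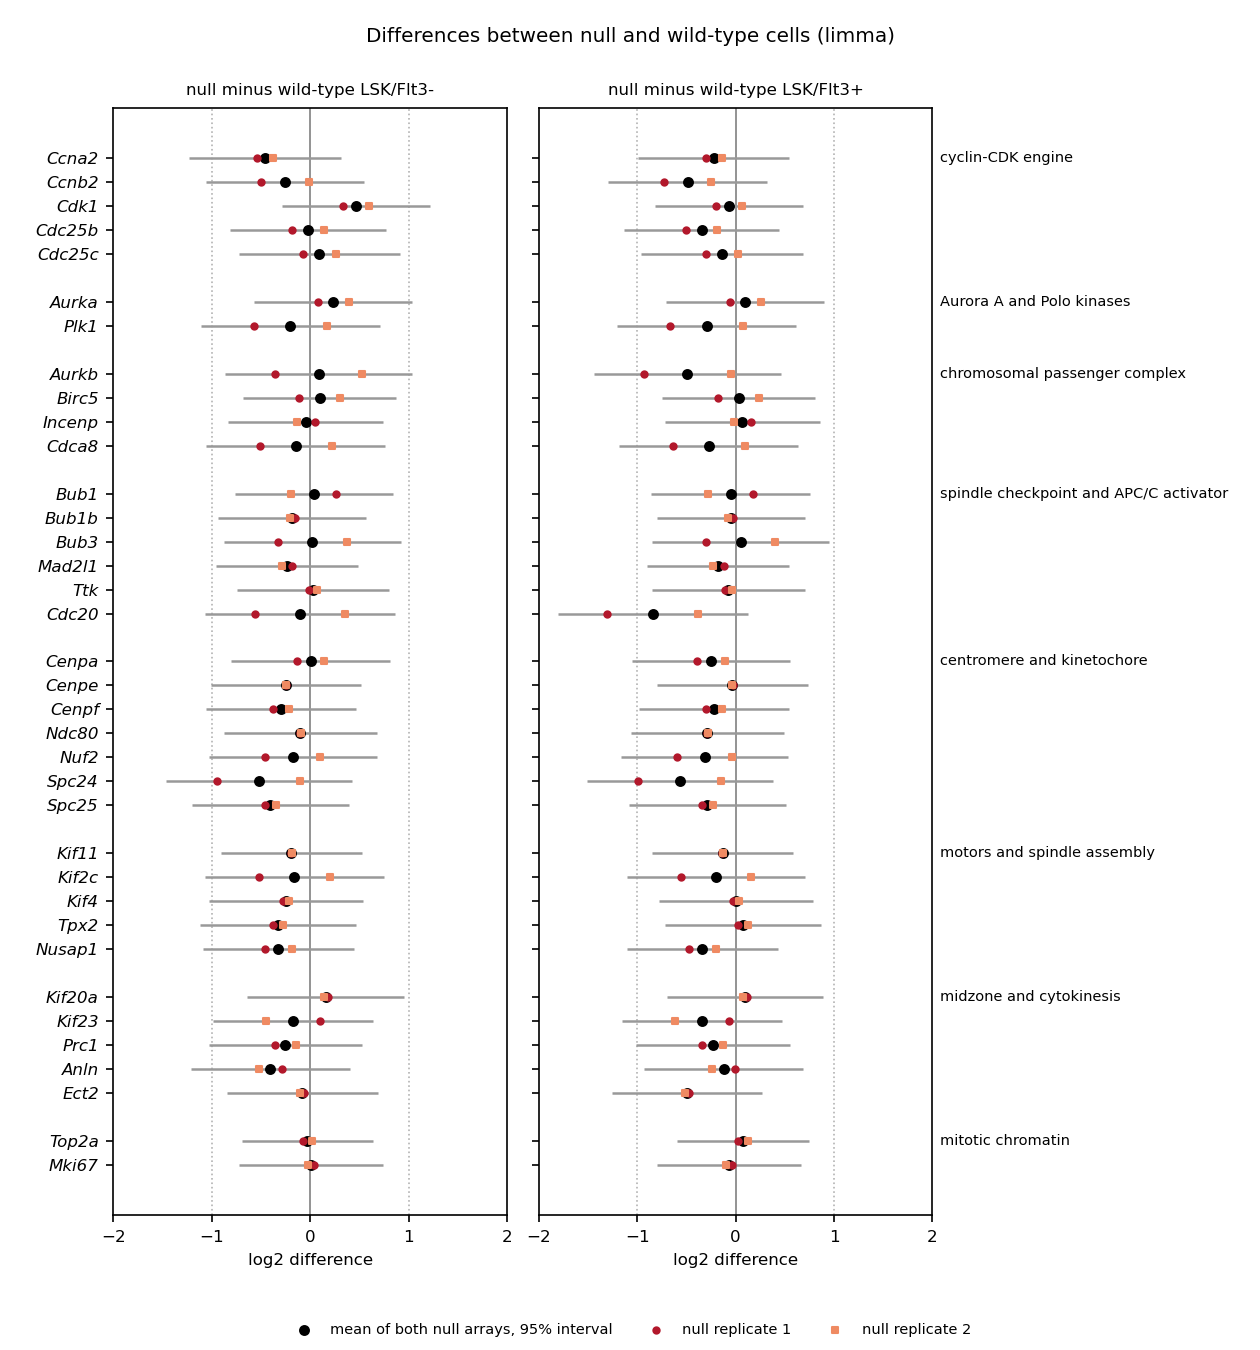
Log2 difference (x axis) between null cells and wild-type LSK/Flt3- cells (left) or wild-type LSK/Flt3+ cells (right) for the 36 mitosis genes (rows): black points are the mean of both null arrays with its 95% interval (grey line, limma), and coloured points are null replicates 1 (dark red) and 2 (orange). Every interval crosses 0, and in the left panel 25 of 36 means lie below it.

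Among the cyclins and their kinase, Cdk1, the catalytic engine of mitosis, stood at log2 levels of 9.76 and 10.03 on the null arrays (replicates 1 and 2) and 9.43 and 9.96 in the Flt3- and Flt3+ wild types. The Flt3- wild type was the low sample, and the null arrays did not separate from the Flt3+ wild type. Its difference from the Flt3- wild type, 0.47 ± 0.34 (SE; adjusted p = 1, limma), was the highest of the members. Ccna2, the cyclin of S and G2 phase, stood the other way. It had levels of 8.98 and 9.14 on null replicates 1 and 2 and 9.52 and 9.28 in the Flt3- and Flt3+ wild types. Both null arrays were below both wild-type arrays, with differences of -0.46 ± 0.35 and -0.22 ± 0.35 (SE). Ccnb2, a B-type cyclin, had levels of 9.14 and 9.63 on null replicates 1 and 2 and 9.64 and 9.87 in the Flt3- and Flt3+ wild types. Null replicate 1 was the lowest array, and replicate 2 was level with the Flt3- wild type. The phosphatase genes Cdc25b and Cdc25c, which activate CDK1, had differences of -0.02 and 0.09 from the Flt3- wild type and of -0.34 and -0.14 from the Flt3+ wild type.

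Aurka encodes Aurora A, the centrosomal kinase that matures spindle poles. Its levels were 8.68 and 8.999 on null replicates 1 and 2 and 8.61 and 8.74 in the Flt3- and Flt3+ wild types, and only null replicate 2 stood above both wild-type arrays. Plk1, the Polo kinase, had levels of 7.76 and 8.50 on null replicates 1 and 2 and 8.33 and 8.42 in the Flt3- and Flt3+ wild types. Here the null arrays fell on either side of the wild-type ones, and the null pair differed by -0.74 (replicate 1 minus replicate 2).

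The chromosomal passenger complex corrects faulty attachments and consists of Aurora B, survivin, INCENP and borealin. Aurkb, its kinase, had levels of 7.89 and 8.77 on null replicates 1 and 2 and 8.25 and 8.82 in the Flt3- and Flt3+ wild types. Cdca8, which encodes borealin, had levels of 7.68 and 8.41 on null replicates 1 and 2 and 8.19 and 8.32 in the Flt3- and Flt3+ wild types. In both genes null replicate 1 was the lowest of the 4 arrays. Birc5, which encodes survivin, followed the same order on the null arrays, with 9.68 and 10.09 against 9.79 and 9.85 in the Flt3- and Flt3+ wild types. Incenp, the scaffold of the complex, ran the other way, with 8.83 and 8.65 against 8.78 and 8.67. For each of these 4 genes the null arrays lay on either side of the Flt3- wild type.

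Of the checkpoint genes, Cdc20 varied most. Its levels were 7.72 and 8.64 on null replicates 1 and 2 and 8.28 and 9.02 in the Flt3- and Flt3+ wild types. The Flt3+ wild type was the highest and null replicate 1 the lowest, and both null arrays were below the Flt3+ wild type. That difference, -0.84 ± 0.43 (SE; 95% interval -1.81 to 0.13; unadjusted p = 0.0814, adjusted p = 1, limma), was the largest of any member in either comparison, and it did not pass. Replicate by replicate it was -1.30 and -0.38. The genes whose products hold CDC20 in check were closer together. Mad2l1, which encodes MAD2, had levels of 10.09 and 9.98 on null replicates 1 and 2 and 10.27 and 10.21 in the Flt3- and Flt3+ wild types, so both null arrays were below both wild-type arrays by a small margin. Bub1b, which encodes BUBR1, showed that order too, with differences of -0.18 and -0.05 from the Flt3- and Flt3+ wild types. Bub1, a kinase that recruits checkpoint proteins to kinetochores, had levels of 9.62 and 9.17 on null replicates 1 and 2 and 9.36 and 9.44 in the Flt3- and Flt3+ wild types. Bub3, the partner of BUB1 and BUBR1, had 7.71 and 8.41 against 8.04 and 8.01. For these last 2 genes the null arrays lay on opposite sides of both wild-type arrays. Ttk, the MPS1 kinase that starts checkpoint signalling, lay between 8.83 and 8.94 on all 4 arrays.

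The 7 kinetochore genes had a median difference of -0.25 from the Flt3- wild type, close to the -0.24 of the motor genes, with 6 lower and 1 level (Cenpa, at 0.00). It was -0.38 on null replicate 1 and -0.10 on replicate 2. Both null arrays were below the Flt3- wild type for 5 of the 7, against 19.9% of all genes and 29.3% of those with a mean of at least 6. They were below the Flt3+ wild type for all 7, where these shares were 25.1% and 28.0%. Spc24, a subunit of the NDC80 complex that grips microtubules, had levels of 7.64 and 8.48 on null replicates 1 and 2 and 8.58 and 8.63 in the Flt3- and Flt3+ wild types. Its difference of -0.52 ± 0.42 (SE; 95% interval -1.47 to 0.42; adjusted p = 1, limma) from the Flt3- wild type was the lowest of the members, and it came mostly from null replicate 1, at -0.95 against -0.10 on replicate 2. Its partner Spc25 was closer between the null arrays, with 7.24 and 7.35 against 7.70 and 7.58 in the Flt3- and Flt3+ wild types, and both null arrays were below both wild-type ones. The other subunits of the complex, Ndc80 and Nuf2, had differences of -0.10 and -0.18 from the Flt3- wild type. Cenpf, a large kinetochore protein of G2 and M phase, had 9.16 and 9.32 on the null arrays against 9.54 and 9.45 in the wild-type ones. Cenpe, the kinetochore motor that moves chromosomes to the spindle equator, had 9.09 and 9.08 against 9.33 and 9.12 in the Flt3- and Flt3+ wild types. Cenpa, the histone H3 variant that marks centromeres, had 8.30 and 8.58 against 8.43 and 8.68.

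All 5 motor and spindle assembly genes had negative differences from the Flt3- wild type, from -0.33 for Tpx2 to -0.16 for Kif2c, and 4 had both null arrays below that array, an order seen in 19.9% of all genes and 29.3% of those with a mean of at least 6. Tpx2, which activates Aurora A on the spindle, had levels of 8.14 and 8.24 on null replicates 1 and 2 and 8.51 and 8.11 in the Flt3- and Flt3+ wild types. The Flt3- wild type was the high sample here, and the other wild-type array lay below both null arrays. Nusap1, a microtubule bundling protein, had 9.21 and 9.49 on the null arrays against 9.67 and 9.69 in the wild-type ones, so the groups did not overlap. Kif2c, which depolymerises microtubules at centromeres, had 7.23 and 7.95 on the null arrays against 7.75 and 7.79, and the null arrays lay on either side. Kif11, the motor that pushes spindle poles apart, stayed within 10.05 to 10.25 over the 4 arrays. Kif4, a chromosome-bound motor, had differences of -0.24 and 0.00 from the Flt3- and Flt3+ wild types.

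In the spindle midzone and cytokinesis group, Kif20a, a motor that brings the passenger complex to the midzone, had levels of 7.65 and 7.61 on null replicates 1 and 2 and 7.48 and 7.54 in the Flt3- and Flt3+ wild types. It was the member with both null arrays above both wild-type arrays, by a difference of 0.16 ± 0.36 (SE) from the Flt3- wild type, well inside its error. Anln, the scaffold anillin of the contractile ring, had 7.88 and 7.64 on null replicates 1 and 2 and 8.16 and 7.88 in the Flt3- and Flt3+ wild types. Its difference from the Flt3- wild type was -0.40 ± 0.36 (SE), with both null arrays lower. Ect2, the exchange factor that activates RhoA at the cleavage furrow, had 9.02 and 8.97 on null replicates 1 and 2 and 9.08 and 9.49 in the Flt3- and Flt3+ wild types, so the Flt3+ wild-type array stood apart from the other 3. Kif23, a midzone motor, had 9.84 and 9.29 on the null arrays against 9.74 and 9.91, and Prc1, the protein that bundles midzone microtubules, had 8.89 and 9.10 against 9.25 and 9.22.

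The general markers of dividing cells differed little on the probe sets used. Mki67, which encodes the proliferation antigen Ki-67, stood at log2 levels of 9.93 and 9.87 on the null arrays (replicates 1 and 2) and 9.89 and 9.96 in the Flt3- and Flt3+ wild types. Top2a, the topoisomerase that untangles chromosomes, had 11.03 and 11.12 against 11.11 and 10.999. The null and wild-type arrays overlapped in both genes. Their 95% intervals for null minus the Flt3- wild type ran from -0.72 to 0.74 for Mki67 and from -0.70 to 0.63 for this probe set of Top2a. Top2a was the one member with more than 1 probe set, and its 2 probe sets disagreed. The dimmer one had levels of 5.38 and 3.47 on the null arrays against 3.63 and 4.01 in the wild types, with null replicate 1 apart. On the mean of both the difference from the Flt3- wild type was 0.38 ± 0.43 (SE; 95% interval -0.58 to 1.34; adjusted p = 1, limma), which turns its sign and includes a 2-fold difference.

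For 17 of 36 members, Cdc20, Aurkb and Plk1 among them, the null arrays lay on either side of the Flt3- wild type. In that order the null arrays always differ more from each other than from that wild type. It held for 7735 of all 19938 genes and 3500 of the 8418 with a mean of at least 6. Null replicate 1 was below replicate 2 for 26 of 36 members (72.2%), against 35.0% of all genes and 53.2% of genes with a mean of at least 6. This count was 32 after median centring and 22 after quantile normalization, where the share of other genes was not counted. Below the all-gene median difference lay 88.9% of the members and 66.1% of the genes with a mean of at least 6. The members' median difference was -0.16, against 0.14 over all genes and -0.04 over those with a mean of at least 6. The widest gaps were those of Cdc20 (-0.92), Aurkb (-0.88), Spc24 (-0.85), Plk1 (-0.74), Cdca8 (-0.73), Kif2c (-0.71) and Bub3 (-0.70), while Kif23 (0.55) and Bub1 (0.46) had the widest gaps the other way. No member reached 2-fold between the null arrays, against 2.82% of all genes. The members in the cyclin, Aurora and Polo, and motor groups were all lower on replicate 1. In the cytokinesis group 4 of 5 were higher, as were 12938 of all 19938 genes and 3933 of the 8418 with a mean of at least 6. Of these 5 genes, 3 lay below the all-gene median difference of 0.14.

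Of the marker lists of other marrow cells, the erythroid and granulocyte-monocyte ones differed most in mean level between the null arrays. Of 10 erythroid genes 7 were measured. All 7 were lower on null replicate 1 than on replicate 2, against 35.0% of all genes. Their mean log2 level was 6.98 and 8.21 on null replicates 1 and 2 and 8.26 and 7.80 in the Flt3- and Flt3+ wild types, and the carbonic anhydrase gene Car1 was at 6.44, 10.92, 11.81 and 11.37. These means lean on Car1, whose gap between the null arrays was -4.49, against a median of -0.38 over the 7 genes. Both null arrays lay below both wild types for 2 of the 7, Car1 and Rhag, against 11.7% of all genes. They lay above both for 2, Car2 and Tfrc, against 23.0% of all genes. All 8 granulocyte-monocyte progenitor genes were lower on replicate 1 too, against the same 35.0% of all genes. Their mean levels were 8.0 and 8.46 on the null arrays against 6.93 and 7.63 in the Flt3- and Flt3+ wild types. Both null arrays lay above both wild types for 6 of the 8, against 23.0% of all genes. They lay below the Flt3+ wild type for Csf1r (-2.34, adjusted p = 0.025, limma) and Fcgr3 (-0.62). The widest difference from the Flt3- wild type was that of Ms4a3, at 3.11. Macrophage genes (6 of 6 measured) had means of 5.32, 5.21 and 5.26 on the LSK/Flt3- arrays and 7.12 in the Flt3+ wild type. The near-equal means cover moves both ways. Both null arrays lay above the Flt3- wild type for 1 gene, Cd68, with 8.02 and 8.38 against 6.95. They lay below it for 2 genes, one of them C1qc, with 3.59 and 4.05 against 4.89. Over all genes these shares were 41.3% and 19.9%. B-lineage genes (6 of 7 measured) had means of 5.47 and 5.45 on the null arrays against 5.81 and 6.03, and T and NK genes (5 of 6) had 4.29, 4.03, 3.87 and 3.88. The part of these cells, and of the narrower spread of null replicate 1, in the mitosis values was not tested.

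**Figure D4:**
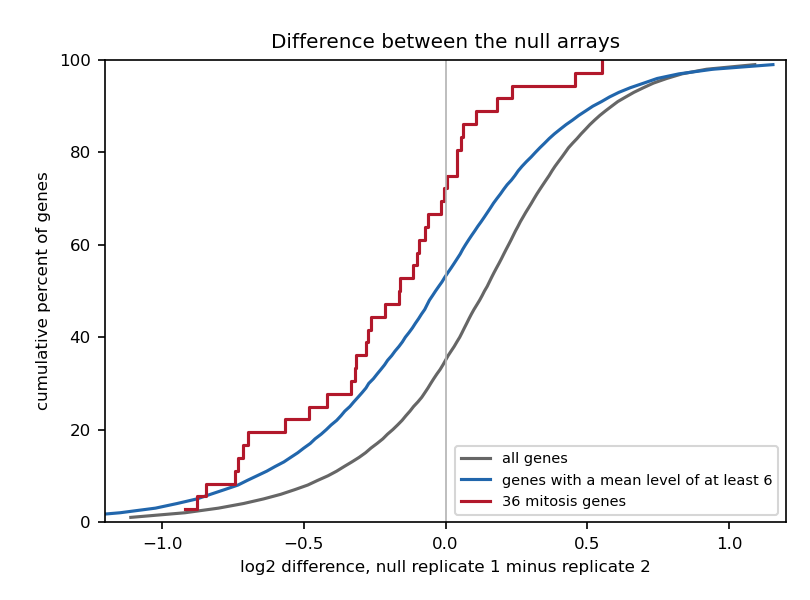
Cumulative percent of genes (y axis) against the log2 difference between null replicates 1 and 2 (x axis) for the 36 mitosis genes (red steps), genes with a mean level of at least 6 (blue) and all genes (grey, percentiles 1 to 99). The red steps lie mostly left of both curves and reach 72.2% at 0, where all genes are at 35.0% and those with a mean of at least 6 at 53.2%.

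Between the wild-type fractions, compared without a test because each has 1 array, the members' median difference (LSK/Flt3+ minus LSK/Flt3-) was 0.06, with 22 higher and 14 lower, against 0.04 over all genes. Lower values made up 43.1% of all genes and 52.2% of those with a mean of at least 6, whose median difference was -0.01. Below the all-gene median difference lay 44.4% of the members and 58.4% of the genes with a mean of at least 6. After median centring the members' median was -0.02, with 16 higher and 20 lower, while the all-gene median moved with it to -0.04. After quantile normalization it was 0.09, with 25 higher and 11 lower. No member was 2-fold apart, against 1.10% of all genes. The widest differences were those of Cdc20 (0.74), Aurkb (0.57), Cdk1 (0.53) and Ect2 (0.41) on the higher side and of Tpx2 (-0.41) on the lower.

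The rest of the mitotic machinery was examined in 101 other genes, of which 98 were measured. Against the Flt3- wild type 0 of the 98 passed over all genes and 0 had an unadjusted p under 0.05, with 48 higher, 50 lower and a median of -0.02. Against the Flt3+ wild type 0 passed and 1 had an unadjusted p under 0.05, a smaller share than the 3.44% of all genes, with 44 higher and 54 lower. That gene was Bora, which encodes an activator of Polo kinase (0.98, unadjusted p = 0.0231, adjusted p = 1, limma). Its levels were 8.99 and 8.65 on null replicates 1 and 2 and 8.24 and 7.84 in the Flt3- and Flt3+ wild types, so both null arrays were above both wild-type ones. Zwilch, part of the complex that brings dynein and the MAD proteins to kinetochores, had the widest difference from the Flt3- wild type, 0.89 (unadjusted p = 0.0564, limma), with levels of 8.49 and 7.74 against 7.23 and 7.51. Nek2, a centrosome kinase, was the widest on the lower side, at -0.72, with 7.02 and 7.22 against 7.84 and 7.59. Esco2, an acetyltransferase of cohesin, was at 0.62. Against the Flt3+ wild type Ckap2 was at -0.93 and the kinase gene Melk at -0.89, with Ckap2 levels of 6.56 and 7.88 on the null arrays against 7.79 and 8.15.

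By complex, the median difference from the Flt3- wild type was 0.03 for 16 APC/C genes, -0.04 for 8 condensin genes, -0.06 for 14 cohesin and separase genes and 0.00 for 15 inner centromere genes. It was 0.00 for 15 outer kinetochore and checkpoint partners, -0.07 for 18 other spindle and centrosome genes and -0.04 for 12 entry kinase and transcription genes. The last group includes Foxm1 and Mybl2, the factors that act through CHR elements, which had differences of -0.09 and 0.23. For comparison, 20 replication genes had a median of -0.04 from the Flt3- and of 0.12 from the Flt3+ wild type, with 0 past the adjusted threshold and 0 at an unadjusted p under 0.05 in either. The difference between these sets and the 36 members was not tested.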

How the data were processed

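RNA of sorted cells was measured on 4 Affymetrix arrays. The authors deposited log2 values for each probe set; the submitters' processing notes name RMA and affy 1.23. Their scaling is unsettled, since the array medians differ. The sources used here give neither detection calls nor a genome build.

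Of 35556 probe sets, 21789 had a single gene symbol in the platform annotation, 1621 had several and 12146 were not listed, and the first kind was used. By Entrez number, 21698 of these were found in RefSeq's gene table. The highest-mean probe set was kept for each of 19938 genes.

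One limma 3.58.1 fit (R 4.3.3) held all 4 arrays in 3 groups, with a mean-dependent prior, two-sided tests and Benjamini-Hochberg adjustment over all genes at 0.05. Only the null pair gives a residual degree of freedom (1, beside 9.01 from the prior), and the single wild-type arrays are taken to vary like that pair. The fit was tested on simulated data. Intervals are at 95%.

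The members and gene lists were chosen with earlier results of these data known. Levels on every array were given for the members with the highest and lowest difference in each function group and for others where they show the pattern. Of the other mitosis genes, the 4 widest differences per comparison were named. Foxm1, Mybl2 and those in the closing section were chosen after their values were seen. Alternatives were the mean of all probe sets, median centring, quantile normalization, a minimum mean level of 6, a constant or robust prior, only the arrays compared, and each null array left out.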

Additional observations from a re-analysis of the deposited data

How the results depend on the processing

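No member passed over all genes, and 0 had an unadjusted p under 0.05, in either null comparison under any of the 7 other settings with a test. The number of all genes past the threshold against wild-type LSK/Flt3- cells was 4, but 2 after median centring, 0 after quantile normalization and 25 with a robust prior. Against wild-type LSK/Flt3+ cells it was 63, but 99 after median centring, 22 with a minimum mean level of 6 and 114 with a robust prior. The members' median difference from LSK/Flt3- cells, -0.15, was -0.27 after median centring. With 1 null array left out, which leaves no test, it ranged from -0.22 to -0.06, and from -0.29 to -0.09 against LSK/Flt3+ cells. Single members changed sign in 8 of 36 cases after median centring, and in 9 and 8 cases without null replicate 1 and replicate 2, against LSK/Flt3- cells. With the mean of all probe sets 1 did, Top2a, from -0.03 to 0.38. The cause of these shifts was not tested. No paired analysis was possible because the wild-type groups have 1 array each and carry no replicate numbers. The number of arrays limits the precision, and with a median standard error of 0.35 for the members, differences under 2-fold mostly could not be shown. Larger ones could also fail the adjusted threshold, as Flt3 did at -1.75 from LSK/Flt3- cells (adjusted p = 0.692, limma).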

Other observations

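The enzymes that work with CDC20 had the same order of arrays as Cdc20 itself at the low end. Ube2c, the ubiquitin-conjugating enzyme that starts chains for the APC/C, stood at log2 levels of 6.53 and 7.51 on the null arrays (replicates 1 and 2) and 6.83 and 7.36 in the Flt3- and Flt3+ wild types. Ube2s, which extends those chains, had 7.79 and 8.51 against 7.95 and 8.64. In both genes null replicate 1 was the lowest array and the Flt3- wild type the next, while null replicate 2 and the Flt3+ wild type were close together. Fzr1, which encodes the other APC/C activator, CDH1, had 6.27 and 7.39 against 7.03 and 7.18. These genes were chosen after their values were seen.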
